A study of Mus musculus with 18 samples.

Results

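The genes described here encode subunits of the mitochondrial respiratory chain and of ATP synthase. They were chosen by a rule on names and levels, applied to the deposited table of 54532 genes. The rule took protein-coding genes with names beginning in Ndufa, Ndufb, Ndufc, Ndufs or Ndufv and a digit, Cox4 to Cox8, Uqcr, Atp5 or mt-, and the genes Sdha, Sdhb, Sdhc and Sdhd. A mean of at least 1 FPKM over all 18 libraries was also required (FPKM is fragments per kilobase of gene length, scaled by library size). The names matched 98 genes and 94 of them reached the mean, of which 81 lie on nuclear chromosomes and 13 on the mitochondrial chromosome. The nuclear members hold 37 genes of complex I, 4 of complex II, 8 of complex III, 15 of complex IV and 17 of complex V, as their names sort them. The mitochondrial members are 7 genes of complex I, 1 of complex III, 3 of complex IV and 2 of complex V. The genes just inside the threshold were Cox6a2 (mean 1.48 FPKM), mt-Atp8 (1.53) and Ndufb2 (1.54). Those just outside were Cox7b2 (0.689), Cox8c (0.298) and Cox8b (0.0419), and a second gene entry named Atp5o was at 0 in every library. All 94 members passed the filter on low values and were tested.

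The cells are ES-E14TG2a, a line of mouse embryonic stem cells, in 3 derivatives that the labels call Arf-B, Arf-C and Ctrlv2. The 6 groups are Arf-B, Arf-C and Ctrlv2 at day 8 and the same 3 at day 0, with 3 libraries in each group. Cells were differentiated with activin A at 20 ng/mL and Matrigel from day 0, then with retinoic acid, written in the labels as 5 μM/ml, and FGF10 at 10 ng/mL from day 4 to day 8. The genotype label reads wild type for every library, and the labels do not say how the lines named Arf were made or whether each is 1 clone. The title refers to p19Arf and to pancreatic differentiation. The labels do not say that replicates came from separate cultures, so p-values measure only the spread between these samples, which may be technical.

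The respiratory chain passes electrons from NADH through complex I, or from succinate through complex II, to complex III, cytochrome c and complex IV, where oxygen is reduced to water. Complexes I, III and IV pump protons across the inner mitochondrial membrane, and ATP synthase (complex V) uses the gradient to make ATP. The mitochondrial chromosome encodes a few core subunits of complexes I, III, IV and V and is transcribed as long precursors from both strands, whereas all other subunits, and the whole of complex II, come from nuclear genes. Pluripotent stem cells are known for relying strongly on glycolysis, and differentiation is commonly accompanied by changes in mitochondrial mass and respiration.

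Reads on genes numbered 10432590 to 22222425 per library at day 8 and 22945409 to 33311220 at day 0. The summed FPKM of 7 naive pluripotency markers was 600 to 815 in Arf-B cells, 502 to 837 in Arf-C and 91.7 to 124 in Ctrlv2 at day 8, and 3300 to 3950 in the day 0 libraries. Retinoic acid response markers summed to 645 to 747, 660 to 771 and 968 to 1080 at day 8 and stood at 2.13 or less at day 0. Definitive endoderm and foregut markers summed to 15.9 to 17.4, 16.9 to 19.3 and 9.65 to 12.2 at day 8, and primitive and parietal endoderm markers to 87.8 to 92.5, 88.6 to 99.8 and 294 to 388. At day 0 the lines differed too: primitive and parietal endoderm markers summed to 44 to 53.9 in Arf-B cells, 45.3 to 50.5 in Arf-C and 122 to 141 in Ctrlv2, and fibroblast markers to 2.6 to 3.23, 2.15 to 2.64 and 15 to 16.9. Of the 4 fibroblast markers, Thy1 was the 1 called at day 0. The libraries of both days therefore differ between lines in such markers as well as in the genes described below, and the part of these differences in the results was not tested. In bulk libraries such as these, fewer cells of a type and less RNA per cell cannot be told apart.

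The upstream sequence of 4 members is shown because these genes carry the main contrasts below: Uqcrc1 and Sdha were lower at day 8 in every line, Uqcrh was the nuclear member that was higher in every line, and the day response of Cox6b2 differed between Ctrlv2 and both Arf lines. Each run covers 250 bases before and 50 after the start of the gene in RefSeq (GRCm38.p6), 5′ to 3′ on the strand of the gene, and capitals mark matches to the NRF1 motif GCGCANGCG or the GABPA motif CCGGAAGT on either strand. NRF1 and GABPA are transcription factors known to act at many promoters of respiratory chain genes.
Uqcrc1, chr9:108936398-108936697, plus strand: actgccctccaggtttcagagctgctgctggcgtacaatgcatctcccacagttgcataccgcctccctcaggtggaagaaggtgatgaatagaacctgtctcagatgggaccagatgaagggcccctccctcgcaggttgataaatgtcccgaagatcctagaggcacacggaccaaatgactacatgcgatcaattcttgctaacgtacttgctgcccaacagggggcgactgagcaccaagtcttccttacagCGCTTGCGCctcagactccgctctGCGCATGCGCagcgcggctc
Sdha, chr13:74350191-74350490, minus strand: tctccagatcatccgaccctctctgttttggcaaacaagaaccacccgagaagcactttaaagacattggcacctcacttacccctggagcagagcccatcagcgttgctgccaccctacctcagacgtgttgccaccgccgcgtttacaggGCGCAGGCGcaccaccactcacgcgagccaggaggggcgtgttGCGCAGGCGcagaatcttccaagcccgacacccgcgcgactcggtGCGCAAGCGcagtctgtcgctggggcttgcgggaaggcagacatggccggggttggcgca
Uqcrh, chr4:116075021-116075320, minus strand: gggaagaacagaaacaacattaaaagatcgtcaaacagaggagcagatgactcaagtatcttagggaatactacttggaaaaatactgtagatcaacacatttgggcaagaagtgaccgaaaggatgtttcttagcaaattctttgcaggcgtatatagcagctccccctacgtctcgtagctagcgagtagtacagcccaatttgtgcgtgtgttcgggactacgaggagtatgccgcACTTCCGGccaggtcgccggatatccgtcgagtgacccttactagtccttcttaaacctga
Cox6b2, chr7:4753045-4753344, minus strand: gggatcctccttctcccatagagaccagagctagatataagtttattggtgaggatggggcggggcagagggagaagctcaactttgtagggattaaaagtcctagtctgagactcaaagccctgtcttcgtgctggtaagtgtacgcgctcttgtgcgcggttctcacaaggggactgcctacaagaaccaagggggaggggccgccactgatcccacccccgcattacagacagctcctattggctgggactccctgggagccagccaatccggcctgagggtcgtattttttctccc

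Such a window was matched by symbol for 66 of the 81 nuclear members. The NRF1 motif was in 19 of them (28.8%), against 6.25% of all 32851 windows and 13.5% of the 10487 windows of tested protein-coding genes. The GABPA motif was in 5 (7.58%), against 3.89% and 8.1%, and the YY1 motif AAGATGGCG in 6 (9.09%), against 1.4% and 3.09%. Overlapping matches of a motif on the 2 strands were counted as 1. For a member the window nearest its annotated start was taken, and for the tested genes the first window listed. The 32851 are all windows, with no choice of 1 per gene, so these shares rest on windows chosen in unlike ways. Among the 4 printed windows, Sdha held 3 NRF1 matches, Uqcrc1 held 2, Uqcrh held 1 GABPA match and Cox6b2 held none of the 3 motifs. A match describes these letters only, and no binding was measured.

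Nuclear-encoded subunit genes were mostly lower at day 8 than at day 0 in all 3 lines. The median log2 fold change was below 0 in all 5 complexes. Complex IV in Arf-C fell least, with a median of -0.20, 7 of 15 called lower and 2 higher. Of the 81, 61 were called lower and 4 higher in Arf-B, 54 lower and 3 higher in Arf-C, and 69 lower and 1 higher in Ctrlv2 (limma on log2(FPKM + 1), called at an adjusted p below 0.05). Over all 17200 genes tested, the share called lower was 33.8% in Arf-B cells, 33.8% in Arf-C and 34.4% in Ctrlv2, and the share called higher was 32.9%, 32.8% and 33.9%. The median log2 fold change of the nuclear members was -0.59 in Arf-B cells, -0.49 in Arf-C and -0.75 in Ctrlv2, against -0.02, -0.02 and -0.01 over all genes tested. The fitted level at day 8 was thus 0.666, 0.714 and 0.596 of that at day 0 for the median member. Without replicate 3 of Arf-C at day 8, 1 member in place of 3 was called higher in Arf-C.

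The 3 day responses compare groups that share no library, so the calls can be counted over lines. All 18 libraries entered a common estimate of the spread, so the calls of the lines are not fully independent. In all 3 lines 52 of the 81 nuclear members were lower, and 23.6% of all genes tested were. Uqcrh was the nuclear member called higher in all 3, where 23.5% of all genes tested were higher. The nuclear members called in no line were Ndufa2, Ndufa3, Ndufb7, Cox4i1, Cox7a2l, Atp5e, Atp5mpl and Atp5s. Copies elsewhere in the genome limit some values: 16 of the 81 share 20% or more of their 50-base stretches with another gene. A gene of higher mean FPKM shares sequence with 6 of the 81, namely Ndufa12, Ndufb2, Ndufs5, Cox7a2l, Atp5g1 and Atp5l, whose values are uncertain. Cox7a2l, for example, averaged 115 FPKM beside 170 at the pseudogene Gm6969, which holds 17.7% of its stretches. With libraries scaled to the same sum of reads, the median of all genes moved by 0.12 in Arf-B cells, 0.12 in Arf-C and 0.06 in Ctrlv2 on the log2 scale, to 0.10, 0.10 and 0.05, and the nuclear medians were then -0.41, -0.32 and -0.66. Under that scaling 59.7% of all Arf-B calls were higher, against 49.4% before.

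**Figure D1:**
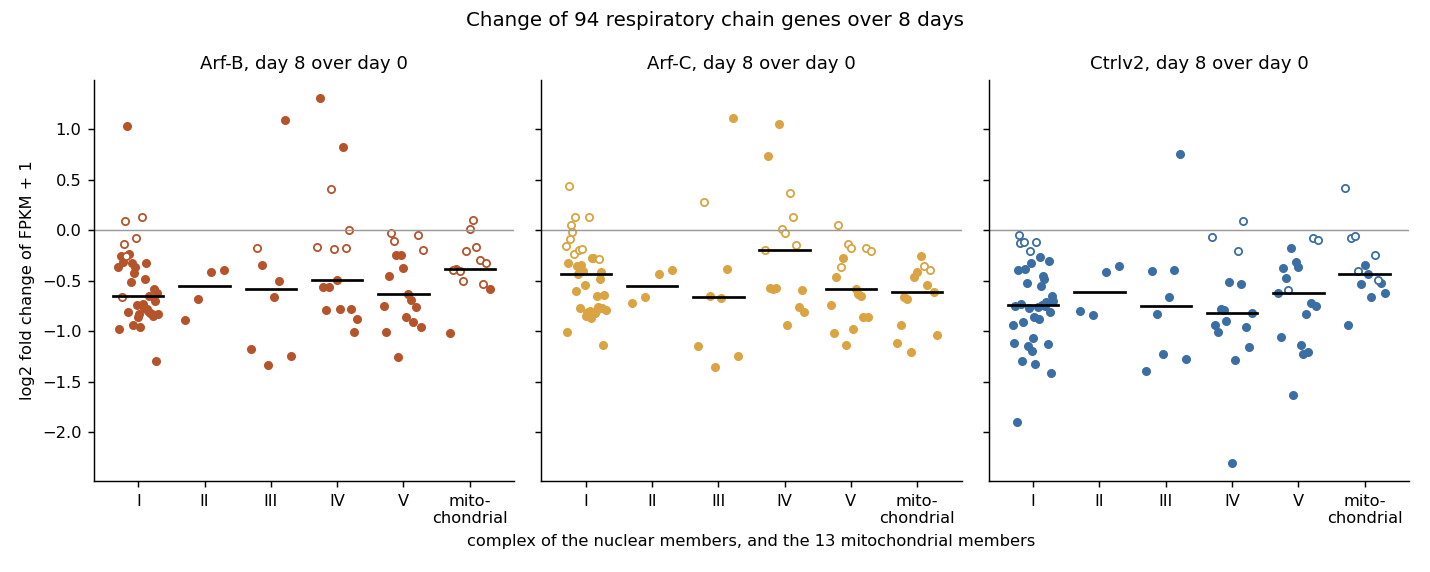
Log2 fold change of each member, day 8 over day 0, in Arf-B, Arf-C and Ctrlv2 (1 panel each), with nuclear members by complex and the mitochondrial members in a column of their own. Filled points were called at an adjusted p below 0.05, open points were not, and the black lines are medians; most nuclear points lie below 0, with medians over all nuclear members of -0.59, -0.49 and -0.75.

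In complex I, which oxidises NADH, 30 of 37 nuclear members were called lower in Arf-B cells, 26 in Arf-C and 32 in Ctrlv2. Ndufv1, the subunit that binds NADH and FMN, had 34.65, 34.5 and 32.74 FPKM in Arf-B cells, 36.82, 32.78 and 35.46 in Arf-C and 37.23, 32.98 and 34.78 in Ctrlv2 at day 8. Its day 0 libraries had 80.16, 84.24 and 90.69 in Arf-B cells, 68.25, 90.92 and 76.86 in Arf-C and 98.04, 91.69 and 95.49 in Ctrlv2. Every day 8 library lay below every day 0 library. The log2 fold change of Ndufv1 was -1.30 in Arf-B cells, -1.14 in Arf-C and -1.42 in Ctrlv2, and Ndufb6, an accessory subunit of the membrane arm, changed by -0.96, -0.81 and -1.33. Ndufs1, the largest subunit, which carries iron-sulfur clusters, fell by similar amounts in the 3 lines (-0.78, -0.82 and -0.74). Ndufa10, an accessory subunit, had -0.98, -1.01 and -1.12. Ndufa12 had a change of -1.90 in Ctrlv2, but its mean of 9.48 FPKM stands beside 90.2 FPKM at the pseudogene Gm15920. By the count of shared stretches used above, Gm15920 holds 26.2% of the stretches of Ndufa12. Reads of Ndufa12 may thus be split between the pair, and the values of Ndufa12 are uncertain.

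All 4 subunits of complex II, succinate dehydrogenase, were called lower in each of the 3 lines. Sdha, the flavoprotein with the succinate site, had 54.33, 54.67 and 52.59 FPKM in Arf-B cells, 55.76, 56.78 and 58.73 in Arf-C and 52.77, 52.44 and 54.09 in Ctrlv2 at day 8. In day 0 libraries it had 97.53, 98.18 and 105.4 in Arf-B cells, 88.94, 100.4 and 95.53 in Arf-C and 95.22, 94.45 and 90.57 in Ctrlv2. The groups of the 2 days did not overlap in any line. The log2 fold changes were -0.89, -0.72 and -0.80 (SE 0.05; adjusted p = 3.026e-10, 3.581e-09 and 7.927e-10 with limma). Sdhb, the iron-sulfur subunit, changed by -0.69, -0.66 and -0.84, and the membrane anchors Sdhc (-0.41, -0.44 and -0.41) and Sdhd (-0.39, -0.40 and -0.35) by less.

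In complex III, the cytochrome bc1 complex, 6 of 8 members were called lower in Arf-B cells, 6 in Arf-C and 7 in Ctrlv2. Uqcrc1, a core subunit, had 32.47, 34.55 and 35.27 FPKM in Arf-B cells, 35.12, 33.03 and 31.92 in Arf-C and 34.46, 36.52 and 36.03 in Ctrlv2 at day 8. At day 0 it had 80.25, 89.45 and 92.8 in Arf-B cells, 80.37, 96.54 and 85.02 in Arf-C and 88.97, 75.04 and 90.6 in Ctrlv2. The 9 day 8 libraries were all below the 9 day 0 libraries, and the lines overlapped within each day. The log2 fold changes were -1.33, -1.36 and -1.22 (SE 0.08; adjusted p = 5.909e-10, 4.9e-10 and 1.355e-09). The small subunits Uqcr10 (-1.17, -1.15 and -1.39) and Uqcrq (-1.24, -1.25 and -1.28) changed as much, and Uqcrfs1, the Rieske iron-sulfur protein, by -0.50, -0.38 and -0.40.

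Uqcrh, the hinge subunit of complex III next to cytochrome c1, went the other way. It had 92.04, 89.59 and 84.79 FPKM in Arf-B cells, 95.37, 79.22 and 83.51 in Arf-C and 95.32, 96.21 and 91 in Ctrlv2 at day 8. Its day 0 libraries had 33.98, 43.08 and 47.74 in Arf-B cells, 33.66, 47.78 and 37.09 in Arf-C and 52.28, 57.45 and 56.22 in Ctrlv2. All day 8 libraries were above all day 0 libraries. The log2 fold changes were 1.09, 1.11 and 0.76 (SE 0.12; adjusted p = 7.467e-07, 5.863e-07 and 3.656e-05). At day 0 Uqcrh was lower in Arf-C than in Ctrlv2 (-0.49, adjusted p = 0.00388) and lower in Arf-B (-0.41, adjusted p = 0.0123), the Arf-B call being lost without replicate 1 of Arf-B (adjusted p = 0.0734). The day response of Uqcrh differed from that of Ctrlv2 by 0.33 in Arf-B cells and 0.36 in Arf-C (SE 0.17), which was not called (adjusted p = 0.153 and 0.115), although the Arf-C value was called without replicate 2 of Arf-C at day 0 (adjusted p = 0.0166). Uqcrh shares 7.83% of its transcript with the pseudogene Uqcrh-ps1, which is at 0 in the table.

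In complex IV, cytochrome c oxidase, 8 of 15 nuclear members were called lower in Arf-B cells, 7 in Arf-C and 12 in Ctrlv2. Cox5a, a matrix-side subunit, changed by -0.56, -0.57 and -1.01, Cox6c by -0.78, -0.93 and -1.28, and Cox8a, the ubiquitous form of subunit 8, by -0.88, -0.81 and -0.82. Cox4i1, the ubiquitous form of subunit 4, was not called in any line. It had 291.1, 312.8 and 276.5 FPKM in Arf-B cells, 306.5, 299.5 and 322.8 in Arf-C and 359.7, 317.7 and 352.5 in Ctrlv2 at day 8, against 295.7, 338.4 and 352.9 in Arf-B cells, 291.6, 411.9 and 370.7 in Arf-C and 375.6, 328.7 and 374.1 in Ctrlv2 at day 0. The ranges of the days overlapped in Arf-B, Arf-C and Ctrlv2.

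In complex V, ATP synthase, 13 of 17 nuclear members were called lower in Arf-B cells, 11 in Arf-C and 14 in Ctrlv2. Atp5b, the catalytic beta subunit, had 284.1, 294.7 and 301.2 FPKM in Arf-B cells, 301.2, 288.8 and 294.9 in Arf-C and 262.3, 265.8 and 262.1 in Ctrlv2 at day 8. In day 0 libraries it had 543.5, 609.7 and 618.6 in Arf-B cells, 548.7, 629.4 and 616.3 in Arf-C and 578.6, 517 and 550.1 in Ctrlv2. The 2 days were separated by more than 200 FPKM in every line, and the log2 fold changes were -1.0, -1.01 and -1.05. Of the 3 genes for the membrane ring subunit c, Atp5g1 changed by -1.25, -1.14 and -1.63, Atp5g2 by -0.24, -0.14 and -0.31, and Atp5g3 by -0.38, -0.17 and -0.37. The values of Atp5g2 and Atp5g3 in Arf-C were not called, though that of Atp5g2 was without replicate 1 of Arf-C at day 0 (adjusted p = 0.0192). Atp5g1 shares sequence with the pseudogene Gm10039, at 62.5 FPKM against 19.7 for Atp5g1 on average, so its values are uncertain.

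**Figure D2:**
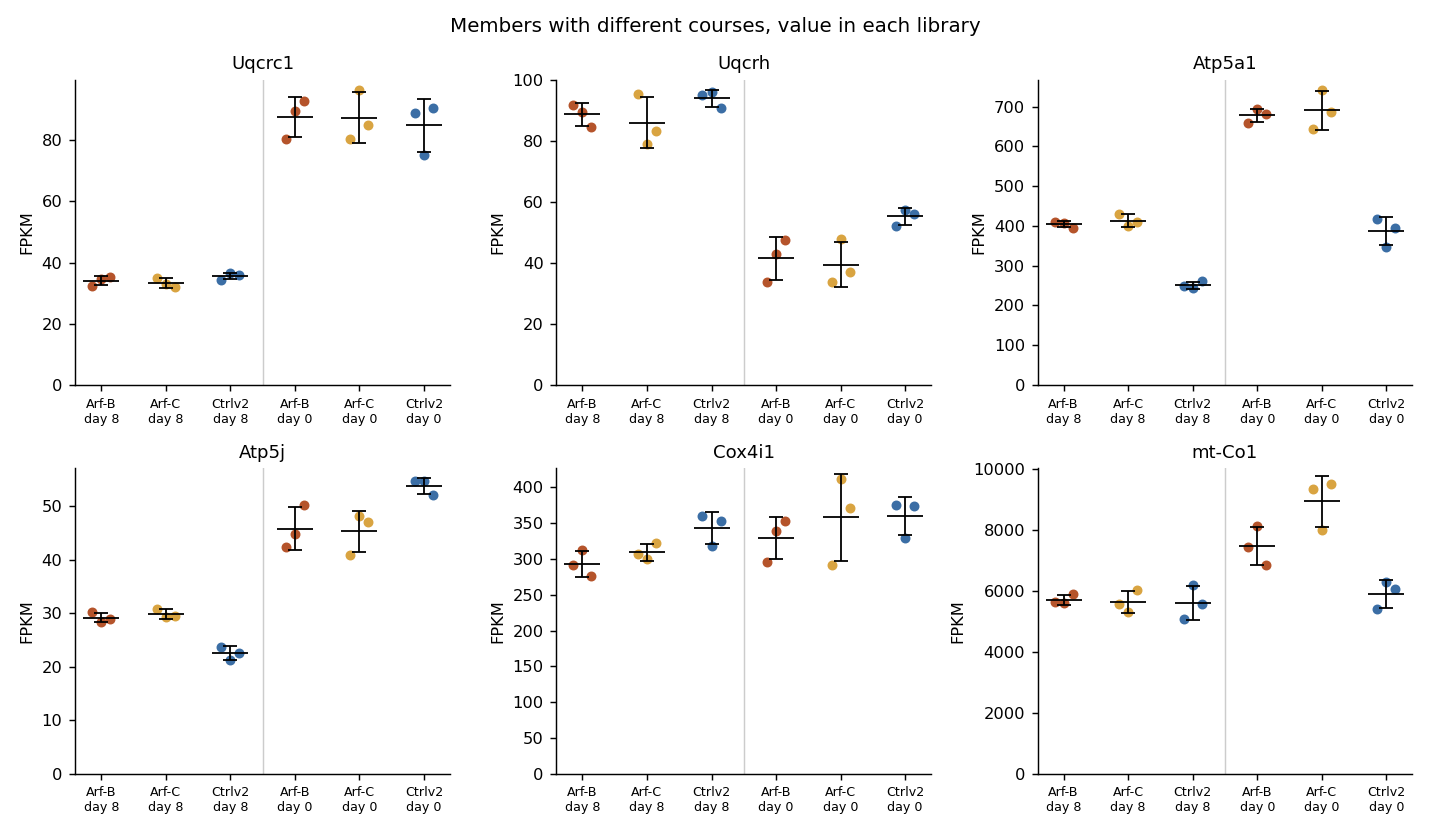
FPKM of 6 members (Uqcrc1, Uqcrh, Atp5a1, Atp5j, Cox4i1 and mt-Co1) in the 6 groups, day 8 left of day 0 and Arf-B, Arf-C and Ctrlv2 within each day. Points are libraries and bars are means ± SD of 3; Uqcrc1 is low at day 8 in every line, Uqcrh is high, and Atp5a1 is higher in both Arf lines than in Ctrlv2 at both days.

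Summed over members, the nuclear part was lower at day 8 in every library, while the mitochondrial part was lower without overlap in Arf-B and Arf-C. The nuclear sum was 4577 to 4722 FPKM in Arf-B cells, 4633 to 4932 in Arf-C and 4280 to 4360 in Ctrlv2 at day 8. At day 0 it was 6353 to 7348 in Arf-B cells, 6153 to 7891 in Arf-C and 6514 to 7196 in Ctrlv2. The mitochondrial sum was 15094 to 15563, 13782 to 15212 and 12678 to 15099 FPKM at day 8, against 17011 to 20372, 19410 to 24057 and 14784 to 18266 at day 0. It did not overlap between days in Arf-B or Arf-C and overlapped in Ctrlv2. Over all libraries this sum averaged 16809 FPKM, of which mt-Co1, a gene copied in part as described below, made up 6541. The mitochondrial sum thus leans on 1 gene, and in Arf-B 3 of the 13 members were called lower. The ratio of the mitochondrial to the nuclear sum was 3.24 to 3.40, 2.96 to 3.10 and 2.93 to 3.53 at day 8, against 2.31 to 2.85, 2.46 to 3.62 and 2.06 to 2.80 at day 0, so it was higher at day 8 without overlap in Arf-B and Ctrlv2 and overlapped in Arf-C. With geometric means in place of sums, the log2 ratio overlapped between days in every line. At day 8 it was 2.529 to 2.92 in Arf-B cells, 2.434 to 2.548 in Arf-C and 2.822 to 3.231 in Ctrlv2. Day 0 libraries had 2.269 to 2.843, 2.502 to 3.123 and 2.366 to 2.836. The separation of days in Arf-B and Ctrlv2 thus held for the ratio of sums and not for that of geometric means. These sums and ratios are given as a description, without a test.

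**Figure D3:**
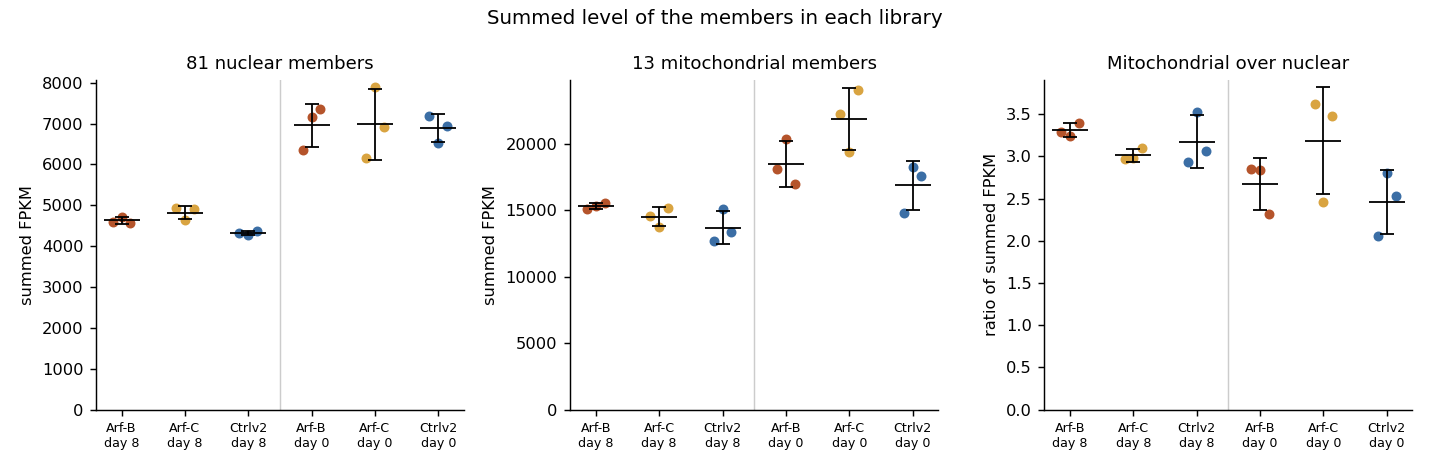
Summed FPKM of the nuclear members, summed FPKM of the mitochondrial members and their ratio in the 6 groups, day 8 left of day 0. Points are libraries and bars are means ± SD of 3; the nuclear sum is 4280 to 4932 FPKM in all day 8 libraries and 6153 to 7891 in all day 0 libraries.

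Reads of the 13 mitochondrial genes made up 2.13% ± 0.05 of all gene reads in Arf-B cells, 2.02% ± 0.10 in Arf-C and 1.81% ± 0.14 in Ctrlv2 at day 8, and 2.28% ± 0.19, 2.71% ± 0.30 and 2.05% ± 0.22 at day 0 (SD, n = 3 each). The 2 mitochondrial ribosomal RNA genes, which are no members, took 0.0744% to 0.0884%, 0.0646% to 0.0748% and 0.110% to 0.163% at day 8, and 0.0367% to 0.0452% in all day 0 libraries. The ribosomal share was higher at day 8 in every line, most in Ctrlv2, unlike the share of the members. RNA was selected for poly(A) tails, and the part of that selection in these values was not tested.

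Before the mitochondrial genes are taken singly, a stretch of chromosome 1 has to be set beside them. Between bases 24611535 and 24616197 (mm10, minus strand, 4.66 kb) the table holds 7 pseudogenes that copy mitochondrial genes almost letter for letter. Gm10925 matches mt-Atp6 in 678 of 678 bases, Gm28437 matches mt-Co3 in 783 of 783, Gm28661 matches mt-Co2 in 681 of 681 and Gm29216 matches part of mt-Co1 in 482 of 483. The following 60-base runs show why the counts of these pairs may be split. The first 60 bases of mt-Atp6 (mitochondrial chromosome, 7927 to 8607, plus strand) and of Gm10925 (chromosome 1, 24613974 to 24614651, minus strand) are the same, and capitals in the mt-Co1 pair (5328 to 6872, plus strand, and 24615706 to 24616197, minus strand) mark the single difference.
mt-Atp6: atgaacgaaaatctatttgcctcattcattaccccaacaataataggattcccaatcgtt
Gm10925: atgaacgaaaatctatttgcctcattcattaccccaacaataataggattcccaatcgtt
mt-Co1: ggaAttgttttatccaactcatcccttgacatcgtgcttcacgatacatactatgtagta
Gm29216: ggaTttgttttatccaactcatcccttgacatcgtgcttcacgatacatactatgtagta

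The members that lie within the copied stretch had low levels and those that reach beyond it had high ones. The 6 within it, mt-Nd3, mt-Nd4l, mt-Co2, mt-Co3, mt-Atp6 and mt-Atp8, averaged 1.53 to 138.6 FPKM. The 7 others, mt-Nd1, mt-Nd2, mt-Nd4, mt-Nd5, mt-Nd6, mt-Co1 and mt-Cytb, averaged 1090 to 6541 FPKM. The copies themselves had levels of the same order as the genes within the stretch: 123.3 FPKM at Gm10925 beside 95.27 at mt-Atp6, 108.8 at Gm28661 beside 138.6 at mt-Co2, and 85.87 at Gm28437 beside 109 at mt-Co3. No source used here says how reads that match several places were counted, so the values of the 6 are uncertain. Counts are given below for the 7 as well as for all 13. The 7 are not free of copies. By the count of shared stretches used above, mt-Nd4 shares 62.2% with Gm28439, and mt-Co1 shares 51.1% with other genes. Gm28439 matches mt-Nd4 in 876 of 876 bases and averaged 26.55 FPKM beside 1086. Part of the reads of mt-Nd4 and mt-Co1 may thus be split as well. mt-Atp8 shares none with another gene of the annotation, although it lies within the copied stretch. For the whole mitochondrial chromosome, mt-Nd4 and mt-Nd4l overlap, as do mt-Atp6 and mt-Atp8, and mt-Nd6 lies on the other strand, with the strand setting of the counting likewise not given.

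**Figure D4:**
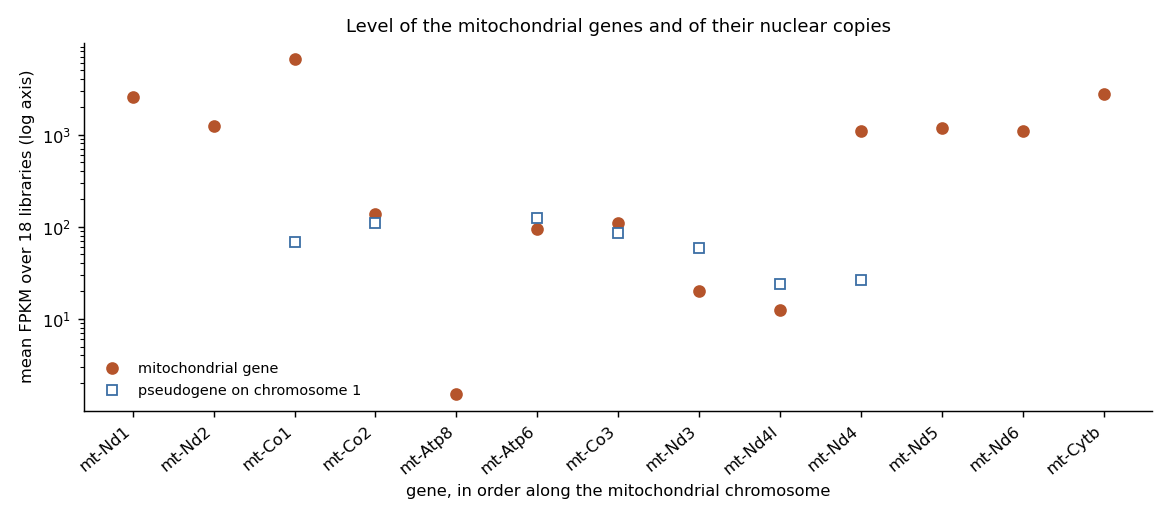
Mean FPKM over 18 libraries, on a log axis, of the 13 mitochondrial members (dots) and of the pseudogenes on chromosome 1 that copy them (open squares). The 6 members within the copied stretch average 1.53 to 138.6 FPKM, and the 7 that reach beyond it 1090 to 6541.

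At day 8 against day 0, 2 of the 7 mitochondrial members that reach beyond the copied stretch were called lower in Arf-B cells, 7 in Arf-C and 5 in Ctrlv2, and none was called higher. Their median log2 fold change was -0.30 in Arf-B cells, -0.545 in Arf-C and -0.43 in Ctrlv2. Over all 13, the 6 uncertain genes included, 3 were called lower in Arf-B cells, 11 in Arf-C and 7 in Ctrlv2, with medians of -0.39, -0.61 and -0.43. Of all genes tested 33.8%, 33.8% and 34.4% were lower, and the Arf-B counts lie below that share. The Arf-B count of 2 of the 7 was 4 without replicate 1 of Ctrlv2 at day 0 and 5 with only the compared groups in the fit. The Arf-B count over the 13 was 5 without replicate 1 of Ctrlv2 at day 0 or without replicate 3 of Arf-B at day 0, and with libraries scaled to the same sum of reads each of the counts was 1, with 2 of the 7 then called higher. Whether the lines differ in this is taken up below by tests of the difference itself. mt-Nd6, a complex I subunit encoded on the strand opposite to the other members, was the mitochondrial gene called lower in all 3 lines (-0.59, -1.04 and -0.62; adjusted p = 0.00444, 3.12e-05 and 0.00278). It had 912.5, 922.3 and 812 FPKM in Arf-B cells, 856.1, 693.1 and 829.8 in Arf-C and 710.2, 797.9 and 677.7 in Ctrlv2 at day 8, against 1254, 1563 and 1181 in Arf-B cells, 1533, 1399 and 1999 in Arf-C and 865, 1215 and 1338 in Ctrlv2 at day 0. No line overlapped between the days.

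mt-Co1, the catalytic subunit of complex IV and the member with the highest mean, had 5617, 5602 and 5882 FPKM in Arf-B cells, 5565, 5303 and 6018 in Arf-C and 5073, 6184 and 5566 in Ctrlv2 at day 8. At day 0 it had 7438, 8115 and 6847 in Arf-B cells, 9328, 7981 and 9506 in Arf-C and 5395, 6280 and 6041 in Ctrlv2. The lines overlapped at day 8, and at day 0 every Arf library lay above every Ctrlv2 library. The day response was -0.39 in Arf-B (adjusted p = 0.00175, and 0.0557 with libraries scaled to the same sum), -0.67 in Arf-C (adjusted p = 1.11e-05) and -0.08 in Ctrlv2, where it was not called. mt-Cytb, the cytochrome b of complex III, changed by -0.47 in Arf-C and -0.54 in Ctrlv2 and had -0.21 in Arf-B, which was not called. mt-Nd1 and mt-Nd2, core membrane subunits of complex I, were lower in Arf-C (-0.42 and -0.26) and in Ctrlv2 (-0.35 and -0.43), and had 0.02 and 0.10 in Arf-B. The Arf-C call of mt-Nd2 was lost without replicate 3 of the day 0 libraries or replicate 1 of the day 8 libraries of Arf-C (adjusted p = 0.109 and 0.0517).

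Against Ctrlv2 at day 8, most nuclear members were not called in either Arf line. In Arf-B 14 of 81 were called higher and 1 lower, where 16.3% of all genes tested were higher and 16.9% lower. In Arf-C 10 were called higher and 1 lower, where 16.8% of all genes were higher and 16.8% lower. The shares of members called higher, 17.3% in Arf-B and 12.3% in Arf-C, were thus near those of all genes, and the members called lower were fewer. The median log2 fold change was 0.08 in Arf-B cells and 0.12 in Arf-C, with 57 and 63 of the 81 above 0, and 0.01 over all genes in each. The 2 comparisons share the Ctrlv2 libraries. With libraries scaled to the same sum of reads, 24 members were higher in Arf-B and 25 in Arf-C and none was lower, and of all calls 63.3% and 61.5% were higher, against 49.05% and 50.04% before. The Arf-B count of 14 was 8 without replicate 2 or replicate 3 of Ctrlv2 at day 8. In the same libraries 6 of 7 naive pluripotency markers were called higher in each Arf line, and their part in these differences was not tested.

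Of the 37 nuclear members of complex I, 6 were higher in Arf-B and 4 in Arf-C. Complex IV gave 4 and 3 of 15, and complex V gave 4 and 3 of 17. Of all genes tested 16.3% and 16.8% were higher. The complex I counts lay near or below these shares, and those of complexes IV and V somewhat above, on few members. Among the members called higher were Ndufa1, a small membrane subunit of complex I, and Atp5j, coupling factor 6 of ATP synthase. Atp5j had 30.13, 28.38 and 28.96 FPKM in Arf-B cells, 30.85, 29.33 and 29.39 in Arf-C and 23.75, 21.18 and 22.61 in Ctrlv2 at day 8, with each Arf library above each Ctrlv2 library (0.36 and 0.39, adjusted p = 0.000850 and 0.000400). Ndufa1 had 63.77, 65.09 and 59.65 in Arf-B cells, 71.87, 69.04 and 70.72 in Arf-C and 50, 54.38 and 54.11 in Ctrlv2, again without overlap (0.25 and 0.41, adjusted p = 0.0164 and 0.000426). The Arf-B call of Ndufa1 was lost without replicate 1 of Ctrlv2 or replicate 1 or 2 of Arf-B at day 8 (adjusted p = 0.0505 to 0.0661).

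At day 0 most calls of nuclear members were of lower levels in the Arf lines, because few members were called higher. In Arf-B 2 were called higher and 11 lower, where 19.1% of all genes tested were higher and 20.0% lower. In Arf-C 2 were called higher and 18 lower, where 21.2% of all genes were higher and 21.5% lower. The Arf-C count of lower members was thus near the share of all genes, and that of Arf-B was below it. The counts of higher members were far below it in both lines. The median was -0.02 in each Arf line, against 0 over all genes. The Arf-B count of 11 lower was 7 without replicate 1 of Ctrlv2 at day 0 and 5 without replicate 1 of Arf-B at day 0. The Arf-C counts were 9 higher and 11 lower without replicate 1 of Arf-C at day 0, and leaving out any of several other libraries took the count of 2 higher to 1, in Arf-B as in Arf-C. Atp5d, the delta subunit of the ATP synthase rotor, was lower in either Arf line (-0.50 each, adjusted p = 0.00706 and 0.00653), and Ndufa1 was too (-0.33 and -0.37).

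Atp5a1, the alpha subunit of ATP synthase, which alternates with the catalytic beta subunit in its F1 head, stood apart from the other nuclear members because it was higher in both Arf lines at both days. At day 8 it had 409.6, 406.7 and 395.4 FPKM in Arf-B cells, 431.3, 398.7 and 409.5 in Arf-C and 248.2, 243.7 and 260.6 in Ctrlv2. Its day 0 libraries had 659.8, 693 and 681.8 in Arf-B cells, 643.4, 742.7 and 685.8 in Arf-C and 417.6, 347.7 and 394.1 in Ctrlv2. Every Arf library lay more than 130 FPKM above every Ctrlv2 library of its day. The log2 fold changes against Ctrlv2 were 0.69 and 0.72 at day 8 (SE 0.07, adjusted p = 1.81e-06 and 1.10e-06) and 0.81 and 0.84 at day 0 (adjusted p = 1.88e-07 and 1.23e-07). Its day response was -0.75 in Arf-B cells, -0.74 in Arf-C and -0.62 in Ctrlv2, and the difference from Ctrlv2 was not called (-0.13 and -0.12, adjusted p = 0.340 and 0.360). The partner Atp5b, encoded elsewhere, was not called at day 8 (0.15 and 0.16, adjusted p = 0.0809 and 0.0652). Atp5a1 shares no stretch of 50 bases with another gene of the annotation.

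Most calls of mitochondrial members against Ctrlv2 rested on single libraries. At day 8, mt-Nd2 was higher in Arf-B with 1257, 1298 and 1307 FPKM, against 972.3, 1091 and 1003 in Ctrlv2 (0.33, adjusted p = 0.00805), and Arf-C had 1109, 1122 and 1187. mt-Nd1 (0.29) and mt-Cytb (0.34) were also called higher in Arf-B, but mt-Nd1 was lost without replicate 1 or 3 of Ctrlv2 or replicate 2 or 3 of Arf-B at day 8, and mt-Cytb without replicate 1 or 3 of Ctrlv2 at day 8. The Arf-C call of mt-Cytb (0.29) was lost without any of these 2 or any replicate of Arf-C at day 8, and its calls of lower mt-Atp6 and mt-Co2 concern genes within the copied stretch. At day 0, mt-Co1 was higher in Arf-B (0.34, adjusted p = 0.00934) and in Arf-C (0.60, adjusted p = 0.000103). Leaving out replicate 1 of Ctrlv2 (adjusted p = 0.0526) ended the Arf-B call, as did leaving out replicate 2 of Arf-B (adjusted p = 0.0516). mt-Nd4 and mt-Nd6 were also called higher in Arf-C and mt-Nd3 lower, each call being lost without single libraries. Both mt-Co1 and mt-Nd4 are copied in part, as described above. Over the 13, 3 were higher in Arf-B at day 8 and 1 at day 0, none being lower. In Arf-C 1 was higher and 2 lower at day 8, and 3 higher and 1 lower at day 0. The calls of lower levels all concern genes within the copied stretch. Of all genes tested, 16.3% were higher and 16.9% lower in Arf-B at day 8, and 19.1% and 20.0% at day 0. In Arf-C the shares were 16.8% and 16.8% at day 8, and 21.2% and 21.5% at day 0. For 13 members the counts thus lay near or below these shares.

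Several isoforms known from restricted tissues or from low oxygen, mostly at low levels here, were called between lines. Cox6b2, known as the testis form of subunit 6b, had 20.92, 23.11 and 18.41 FPKM in Arf-B cells, 23.36, 21.52 and 26.63 in Arf-C and 14.11, 13.43 and 7.914 in Ctrlv2 at day 8. In day 0 libraries it had 28.57, 27.59 and 33.04 in Arf-B cells, 21.45, 26.69 and 24.72 in Arf-C and 59.05, 62.5 and 60.48 in Ctrlv2. Both Arf lines were thus above Ctrlv2 at day 8 and below it at day 0, without overlap. The day response was -0.50 in Arf-B, -0.03 in Arf-C and -2.31 in Ctrlv2 (SE 0.16, adjusted p = 2.48e-09 in Ctrlv2). The Arf-B response (adjusted p = 0.0113) was lost without replicate 3 of Arf-B at day 0 (adjusted p = 0.0508) or at day 8 (adjusted p = 0.0521) and with libraries scaled to the same sum of reads (adjusted p = 0.0833), and the Arf-C response was not called (adjusted p = 0.898). The ubiquitous form Cox6b1 had 136.2, 140 and 131.2 FPKM in Arf-B cells, 147.3, 130.2 and 144.4 in Arf-C and 129.9, 119.2 and 124.5 in Ctrlv2 at day 8, which exceeded Cox6b2 in every library. The summed FPKM of male germ cell markers was 20.2 to 21.6 in Arf-B cells, 17.7 to 21 in Arf-C and 16.7 to 19.9 in Ctrlv2 at day 8, and 5.34 to 12 at day 0, and its part in the Cox6b2 values was not tested.

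Cox4i2, the form of subunit 4 known from lung and from low oxygen, had 3.402, 1.98 and 3.593 FPKM in Arf-B cells, 1.842, 2.299 and 3.992 in Arf-C and 1.235, 2.27 and 1.905 in Ctrlv2 at day 8. At day 0 it had 0.5222, 0.4855 and 0.7541 in Arf-B cells, 0.9409, 1.567 and 1.058 in Arf-C and 5.168, 3.068 and 4.995 in Ctrlv2. At day 0 both Arf lines were below Ctrlv2 (-1.75 and -1.29, adjusted p = 1.93e-05 and 0.000283), and at day 8 the libraries overlapped (0.50 and 0.38, adjusted p = 0.104 and 0.218). The Arf-B value at day 8 was called without replicate 2 of Arf-B (adjusted p = 0.0372). The day response was 1.31 in Arf-B cells, 0.73 in Arf-C and -0.94 in Ctrlv2, the Arf-C call being lost without replicate 3 of Arf-C at day 8 (adjusted p = 0.0621). These values rest on 11 to 127 reads per library.

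Ndufa4l2, a relative of Ndufa4 known as a target of hypoxia-inducible factor, had 2.184, 3.488 and 3.151 FPKM in Arf-B cells, 0.8283, 1.441 and 0.8618 in Arf-C and 0.6515, 1.118 and 1.01 in Ctrlv2 at day 8. Its day 0 libraries had 0.954, 0.7306 and 1.044 in Arf-B cells, 0.6395, 0.8772 and 1.051 in Arf-C and 2.375, 2.787 and 7.076 in Ctrlv2. Both Arf lines were below Ctrlv2 at day 0 (-1.30 and -1.34), and Arf-B was above it at day 8 (1.03, adjusted p = 0.00496), where Arf-C had 0.08 (adjusted p = 0.845). Its reads numbered 11 to 250 per library. Ndufa4 itself, now known to be a subunit of complex IV and sorted here under complex I by its name, had a day response of -0.26 in Arf-B cells and -0.23 in Arf-C, neither called (adjusted p = 0.0580 and 0.0853), and -0.73 in Ctrlv2. Each of these Arf values was called without some single libraries, replicate 1 of the day 0 libraries of its own line among them (adjusted p = 0.0226 in Arf-B and 0.00300 in Arf-C). Cox7a1, the heart and muscle form of subunit 7a, had 9.558, 9.754 and 10.75 FPKM in Arf-B cells, 8.929, 7.755 and 11.17 in Arf-C and 8.364, 5.808 and 5.463 in Ctrlv2 at day 8, and its day response was called in Arf-B (0.82, adjusted p = 0.000304) and had 0.37 in Arf-C (adjusted p = 0.0546), called there without any of 5 single libraries. Striated muscle markers summed to no more than 3.46 FPKM in any library. The muscle form Cox6a2 had 1 to 72 reads per library, too few for more than its range of 0.1385 to 3.608 FPKM.

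**Figure D5:**
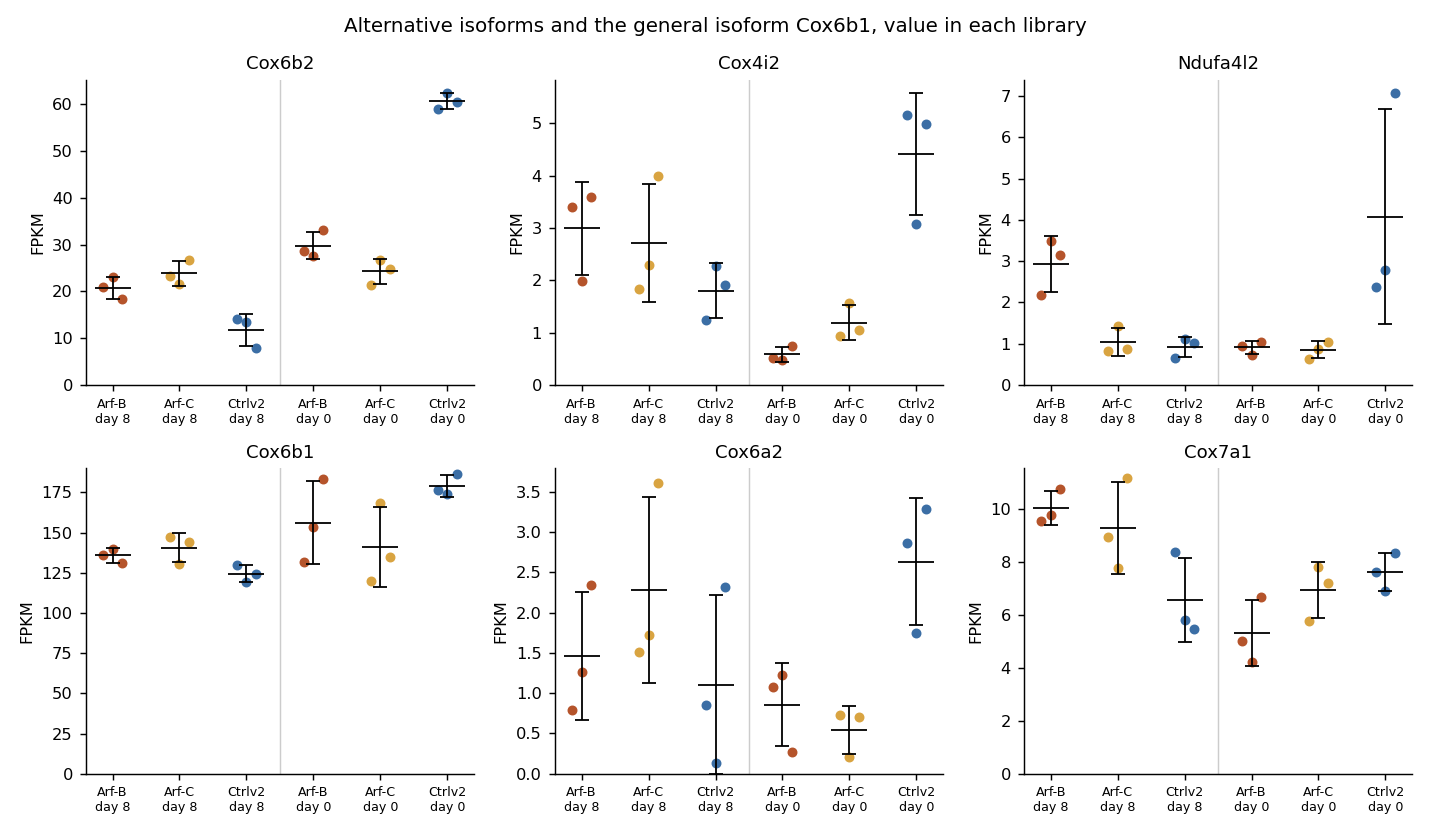
FPKM of 6 isoforms (Cox6b2, Cox4i2, Ndufa4l2, Cox6b1, Cox6a2 and Cox7a1) in the 6 groups, day 8 left of day 0. Points are libraries and bars are means ± SD of 3; Cox6b2 is highest in Ctrlv2 at day 0 (59.05 to 62.5 FPKM) and lowest in Ctrlv2 at day 8 (7.914 to 14.11).

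The difference between the day response of an Arf line and that of Ctrlv2 was tested directly. In Arf-B 11 of 81 nuclear members were called higher, which here means a smaller fall or a rise relative to Ctrlv2, and 1 lower, where 17.5% of all genes tested were higher and 16.1% lower. In Arf-C 21 were called higher and 1 lower, where 19.4% of all genes were higher and 18.9% lower. The median difference was 0.12 in Arf-B cells and 0.18 in Arf-C, against 0.01 and 0 over all genes. The Arf-B count of 11 was 7 without replicate 1 of Ctrlv2 at day 0, replicate 1 of Arf-B at day 0 or replicate 2 of Arf-B at day 8, and 17 with libraries scaled to the same sum of reads, where 63.0% of all calls were higher, against 52.1% before. The Arf-C count of 21 was 12 without replicate 1 of Arf-C at day 0 and 34 without replicate 2 of Arf-C at day 0. The comparisons share the Ctrlv2 libraries, so their values are set side by side.

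The members called in both Arf lines included 3 isoforms. The difference was 1.81 in Arf-B cells and 2.28 in Arf-C for Cox6b2 (SE 0.22, adjusted p = 2.11e-05 and 2.05e-06), 2.25 and 1.67 for Cox4i2, and 2.33 and 1.42 for Ndufa4l2. Among broadly expressed subunits it was 0.59 and 0.64 for Atp5j (adjusted p = 0.000267 and 0.000118) and 0.57 and 0.78 for Ndufa1 (adjusted p = 0.000529 and 2.97e-05). The highest value in Arf-C was 2.33 for Ndufa12 (adjusted p = 0.00567), which had 1.24 in Arf-B, not called (adjusted p = 0.120) except without replicate 2 of Arf-B at day 0 (adjusted p = 0.0440). Ndufa12 is the complex I member described above as uncertain because of Gm15920. It had 4.521, 4.629 and 6.203 FPKM in Arf-B cells, 5.203, 18.88 and 6.897 in Arf-C and 5.208, 3.721 and 4.733 in Ctrlv2 at day 8, against 6.012, 15.3 and 6.758 in Arf-B cells, 4.83, 8.242 and 6.349 in Arf-C and 30.84, 20.44 and 11.83 in Ctrlv2 at day 0. Its libraries were widely spread within groups. At day 0 it was lower in Arf-C than in Ctrlv2 (-1.49, adjusted p = 0.00912), a call lost without replicate 1 of Ctrlv2 at day 0 (adjusted p = 0.0544). Cox6a2 had 1.95 in Arf-C on few reads. Cox7a1 was called in Arf-B (1.03), and Cox7a2 (0.66) and Ndufs6 (0.65) in Arf-C. Of the 13 mitochondrial members, mt-Nd2 (0.54, adjusted p = 0.00361) and mt-Nd1 (0.37) were higher and mt-Atp6 lower in Arf-B, and mt-Co1 (-0.59, adjusted p = 0.00259) and mt-Atp6 were lower in Arf-C. The mt-Nd1 and mt-Atp6 calls were lost without single libraries, mt-Atp6 lies within the copied stretch, and mt-Co1 is copied in part.

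Gene length moved with the day response and with its differences between lines. The median difference of the 21 nuclear members under 1 kb was 0.28 in Arf-B cells and 0.52 in Arf-C, and that of the 29 members of at least 2 kb was 0.02 and 0.00. Among the other protein-coding genes under 1 kb it was 0.04 and 0.10. Of the short members 4 were called higher in Arf-B and 10 in Arf-C, and of the long ones 3 and 4. Of other protein-coding genes, 15.8% and 19.3% of those under 1 kb were called higher, and 20.8% and 22.8% of those of at least 2 kb. The Arf-C count of short members lay above its share, and the other counts lay near or below theirs. The day response varied with length in the Arf lines: 14 of the 21 short members were called lower in Arf-B cells, 10 in Arf-C and 18 in Ctrlv2, against 26, 26 and 27 of the 29 long ones. The median day response of the short members was -0.365 in Arf-B cells, -0.28 in Arf-C and -0.81 in Ctrlv2, and that of the long members was -0.75, -0.74 and -0.75. Of the 31 members of 1 to 2 kb, 21, 18 and 24 were lower. Other protein-coding genes under 1 kb were called lower in 31.9% (Arf-B), 29.4% (Arf-C) and 37.4% (Ctrlv2) of cases. Those of 1 to 2 kb were lower in 39.7%, 39.1% and 42.7%, and those of at least 2 kb in 35.6%, 36.0% and 35.5%. The part of length in the line differences was not tested.

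Between Arf-B and Arf-C no member was called at either day, with 0.105% of all genes tested higher and 0.238% lower at day 0, and 0.0349% higher and 0.0233% lower at day 8. At an unadjusted limma p below 0.05, 4 of the 94 members differed at day 0 and 6 at day 8. Ndufa4l2 was 0.94 higher in Arf-B at day 8 (adjusted p = 0.487), which was called without replicate 3 of Ctrlv2 at day 0 (adjusted p = 0.0253). This does not show that the lines are alike.

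Of genes that build, feed and express the respiratory chain, more were called lower than higher at day 8 in every list below, beside 33.8%, 33.8% and 34.4% of all genes tested called lower in Arf-B, Arf-C and Ctrlv2. Of 16 genes listed for complex I assembly, 13 were called lower in Arf-B cells, 12 in Arf-C and 14 in Ctrlv2, with 1, 1 and 0 higher. That list holds Ndufab1, a subunit of complex I that the rule on names leaves out. Of 28 tested assembly genes of complexes II to V 14, 16 and 13 were lower, nearer the share of all genes, and 0, 2 and 1 higher. Ecsit, an assembly factor of complex I, changed by -1.04, -0.84 and -1.38, Sco1, which delivers copper to complex IV, by -1.35, -1.11 and -1.10, and Atpaf1, an assembly factor of ATP synthase, by -1.18, -0.97 and -1.27. Of 77 mitochondrial ribosomal protein genes 66, 64 and 66 were lower and 2 in each line higher, and Mrpl39 changed by -1.33, -1.28 and -1.51. Of 17 genes of the tricarboxylic acid cycle and pyruvate dehydrogenase 14, 13 and 14 were lower and 2, 2 and 0 higher, and Pdhb, a pyruvate dehydrogenase subunit, changed by -1.81, -1.77 and -1.52. The genes named here fell further than the medians of their lists. Those medians were -0.62, -0.52 and -0.47 for complex I assembly and -0.28, -0.30 and -0.23 for assembly of complexes II to V. For the mitochondrial ribosome they were -0.71, -0.61 and -0.67, and for the last list -0.38, -0.43 and -0.46.

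Of 14 genes for the replication and transcription of the mitochondrial chromosome 10, 8 and 9 were lower and 1, 1 and 2 higher, with Tfam, which packages mitochondrial DNA and starts its transcription, at -0.44, -0.59 and -0.50 and Polrmt, the mitochondrial RNA polymerase, at -0.62, -0.70 and -0.72. Of 16 for RNA processing and stability 13, 15 and 13 were lower and none higher, Lrpprc, which stabilises mitochondrial messenger RNAs, by -0.95, -0.90 and -0.99. Among 10 nuclear regulators 6, 5 and 8 were lower and 1 in each line higher, so the count in Arf-C is not far from the share of all genes. Esrrb, an orphan nuclear receptor of naive pluripotency, changed by -3.20, -3.28 and -5.39, Gabpa by -0.86, -0.88 and -0.66 and Nrf1 by -0.52, -0.56 and -0.63. Esrrb fell most of the regulators in each line, and the medians of that list were -0.38, -0.37 and -0.58. For replication and transcription the medians were -0.39, -0.39 and -0.45, and for RNA processing and stability -0.76, -0.78 and -0.81. Cycs, the somatic cytochrome c, had -0.40, -0.18 (not called in Arf-C) and -0.79, and Cyct, the testis form, had -0.69, -0.52 and -2.47, its Arf-B and Arf-C calls being lost without single libraries.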

How the data were processed

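Messenger RNA was sequenced in 18 libraries of 6 groups of 3. The authors deposited 1 table of FPKM values for 54532 genes with coordinates and gene lengths. Tools listed in the submitters' processing notes are HISAT2, featureCounts and DESeq2, with mm10 as the build and no versions. FPKM times gene length was a whole multiple of a step fixed within each library, which returned reads for all 413772 values above 0 (largest deviation 4.8e-05, tolerance 0.001). The reads give depth and shares only, and intervals from them would cover counting error only.

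The tests used limma 3.58.1 and statmod 1.5.0 (R 4.3.3), with Python 3.11.15, pandas 2.3.3, numpy 2.4.6, Biopython 1.88 and matplotlib 3.10.9 for tables, sequences and figures. The 17200 genes that reached 0.5 FPKM in 3 or more libraries were tested on log2(FPKM + 1) with 1 coefficient per group over all libraries, empirical Bayes moderation with trend and robust settings, and Benjamini-Hochberg adjustment over all genes tested. Log2 fold changes are on that scale, which understates changes of low genes. No pair of libraries agreed within sampling noise. The procedure was checked on simulated data.

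The members and the related lists were chosen with earlier results of these data known. Named members are the 13 mitochondrial genes, the subunits of complex II, the isoform families, the 3 genes on each side of the threshold, and up to 3 called members per comparison, complex and direction with the largest change and no overlap. Members called in both differences of day response were also named, up to 5 per direction. Other members were named from the lists of calls as examples, after their values were seen: Ndufs1, Uqcrfs1, Cox5a, Cox6c and Atp5b. Of each related list up to 4 called genes were taken. The values of 1 member that the naming would take are not reported here, and it remains in the counts. Promoter windows came from RefSeq (GRCm38.p6) and matched 66 of 81 nuclear members by symbol. The NRF1 and YY1 motifs are shortened forms, taken after longer ones had been counted. Alternatives were no filter, a stricter filter (mean of 1 FPKM), a pseudocount of 0.1, the same sum of reads per library with or without mitochondrial reads, a fit of the compared groups only, no trend or robust settings, a replicate block, and leaving out each library. Adding the chromosome 1 copies to their mitochondrial genes was chosen after seeing the data.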

Additional observations from a re-analysis of the deposited data

Results flagged for a closer look

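For 6 members described here the day 8 against day 0 response differed from that of Ctrlv2 by the test of the difference itself in each Arf line. They come from a longer list, and Ndufa4, Cox5a, Ndufa11 and Ndufb6 were among the others called in both differences. Of all genes tested, 17.5% were called higher and 16.1% lower in the difference of Arf-B. In that of Arf-C the shares were 19.4% and 18.9%. The share of all genes called in both differences is not given here. On the log2(FPKM + 1) scale the difference was 1.809 in Arf-B cells and 2.279 in Arf-C for Cox6b2, 2.25 and 1.672 for Cox4i2, 2.326 and 1.424 for Ndufa4l2, 0.591 and 0.638 for Atp5j, and 0.575 and 0.783 for Ndufa1. It was -1.428 and -1.526 for mt-Atp6, whose values are uncertain because its sequence is copied on chromosome 1. The Arf-B call of mt-Atp6 was lost when 15 of the 18 libraries were left out singly. The comparisons of the 2 Arf lines share the 6 Ctrlv2 libraries.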

How the results depend on the processing

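No call of a member was reversed in any alternative. The counts of nuclear members called lower at day 8 against day 0 were within 1.5 times the values given under every setting, and without single libraries they were 55 to 63 in Arf-B cells, 51 to 62 in Arf-C and 65 to 70 in Ctrlv2. The line differences depended more on settings, and the causes were not tested beyond what the settings themselves change. Depth limits the low isoforms, mt-Atp8 (1 to 21 reads per library) and Cox6a2 most.

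With a pseudocount of 0.1, the mitochondrial members lower in Arf-C at day 0 were 0 in place of 1. With no filter, the nuclear members at day 0 were 1 higher and 7 lower for Arf-B, with 1 higher for Arf-C, with 0 mitochondrial ones lower in Arf-C. At day 8 Arf-C then had 0 nuclear ones lower and 0 mitochondrial ones higher and 1 lower. The difference in day response had 7 nuclear ones higher and 0 lower and 1 mitochondrial higher and 0 lower in Arf-B, and 1 mitochondrial lower in Arf-C. With a filter at a mean of 1 FPKM, 1 mitochondrial member was lower in Arf-B at day 0 and 2 nuclear ones at day 8.

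With the same sum of reads (without mitochondrial reads in brackets), the day response had 2 (1) mitochondrial members higher and 1 (1) lower in Arf-B and 7 (6) nuclear ones higher in Arf-C. At day 0, 1 (1) nuclear member was higher in Arf-B and 0 (0) mitochondrial ones lower in Arf-C. At day 8, 24 (26) nuclear members were higher and 0 (0) lower for Arf-B, and 25 (25) higher and 0 (0) lower in Arf-C, with 2 (2) mitochondrial ones higher. The difference in day response had 17 (17) nuclear ones higher and 0 (0) lower and 0 (0) mitochondrial ones lower in Arf-B, and 0 nuclear ones lower in Arf-C.

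With only the compared groups in the fit, 6 mitochondrial members were lower in the day response of Arf-B. At day 0, 1 nuclear member was higher for Arf-B, and 1 was higher and 11 lower for Arf-C, with 1 mitochondrial higher. At day 8, 3 nuclear ones were lower and 5 mitochondrial ones higher in Arf-B, and the difference of Arf-B had 1 mitochondrial higher and 0 lower. Without trend and robust settings, 1 mitochondrial member was lower in Arf-B and 1 nuclear one higher in Arf-C at day 0. With the copies added, 1 mitochondrial member was lower in Arf-B at day 0 and 1 at day 8, and 0 in the difference of Arf-B. Share of mitochondrial reads at day 8 was 2.189% in Arf-B over protein-coding reads, and 1.972% in Arf-B and 1.872% in Arf-C without mt-Atp8, mt-Atp6, mt-Nd4l and mt-Nd4.

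Replicate numbers did not pair the libraries: deviations of same-numbered libraries correlated at -0.251 to 0.203 (median 0.00396, above 0.1 in 3 of 45 pairs), and those of other pairs at a median of 0.00148. A fit with the replicate block gave 1 mitochondrial member lower in Arf-B and 1 nuclear one higher in Arf-C at day 0, and moved no other count beyond 1.5 times.

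Without single libraries the counts ranged as follows. Day response: mitochondrial lower 2 to 5 in Arf-B, nuclear higher 1 to 4 in Arf-C. Day 0, Arf-B: nuclear higher 1 to 3 and lower 5 to 13, mitochondrial higher 0 to 2 and lower 0 to 2. Day 0, Arf-C: nuclear higher 1 to 9 and lower 11 to 25, mitochondrial higher 1 to 5 and lower 0 to 1. Day 8, Arf-B: nuclear higher 8 to 16 and lower 0 to 3, mitochondrial higher 1 to 3 and lower 0 to 2. Day 8, Arf-C: nuclear lower 0 to 1, mitochondrial higher 0 to 1 and lower 1 to 2. Arf-B against Arf-C at day 8: nuclear higher 0 to 1. Difference of Arf-B: nuclear higher 7 to 15 and lower 0 to 1, mitochondrial higher 1 to 3 and lower 0 to 1. Difference of Arf-C: nuclear higher 12 to 34 and lower 0 to 1, mitochondrial lower 1 to 2.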

Other observations

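Genes near Atp5a1 were looked at after its values were seen. Within 1 Mb of it 13 other genes were tested, and against Ctrlv2 at day 0 the calls were 8 higher and 1 lower for Arf-B (median log2 fold change 0.42), and likewise 8 and 1 for Arf-C (0.36). At day 8, 5 were higher and 2 lower for Arf-B (0.33), with 4 and 1 for Arf-C (0.24). Of all genes tested, 19.1% (Arf-B) and 21.2% (Arf-C) were higher in the day 0 libraries and 16.3% (Arf-B) and 16.8% (Arf-C) in those of day 8, so the day 8 counts lie closer to these shares than those of day 0. Setbp1 had 13.1 ± 1.49 FPKM in Arf-B cells, 12.3 ± 2.28 in Arf-C and 0.187 ± 0.0251 in Ctrlv2 at day 0 (SD, n = 3 each). Haus1, a subunit of the augmin complex of the spindle, had 72.9 ± 3.53, 63.3 ± 8.17 and 37.5 ± 2.87 FPKM in the same groups.

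Cyct, the testis cytochrome c, had 6.29 ± 0.87 FPKM in Arf-B cells, 5.22 ± 0.90 in Arf-C and 19.7 ± 3.24 in Ctrlv2 at day 0 (-1.50 and -1.73 by limma, adjusted p = 4.97e-05 and 1.14e-05), and its day response differed from that of Ctrlv2 by 1.78 in Arf-B cells and 1.95 in Arf-C. Cox7b2, which lay below the mean required of members, had -1.26 in Arf-B cells and -1.05 in Arf-C at day 0, and a difference of day response of 1.10 and 0.99.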
